A study of Homo sapiens with 6 samples.

Results

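Long noncoding RNAs are RNA polymerase II transcripts that are mostly processed like mRNAs but are not known to be translated into conserved proteins. The set described here was chosen by gene symbol and level. It holds the LINC, SNHG and miRNA host gene (MIR...HG) symbols and 12 RNAs listed by name, among them MALAT1 and NEAT1, with a mean of at least 0.5 FPKM (fragments per kilobase of exon with fragments also scaled to library size) over the 6 libraries. Of 940 matching symbols in the deposited table, 331 met this level, and they were 331 of the 15504 genes of any kind that did so, out of 26364 symbols. They comprised 282 LINC genes, 19 miRNA host genes, 20 snoRNA host genes (the SNHG genes and GAS5) and 10 further RNAs listed by name. Of those listed by name, H19 did not reach the level, with a mean of 0.0716 FPKM.

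The libraries were made from A673/TR/shEF cells, an Ewing sarcoma line (A673) engineered with the tetracycline repressor (TR) and a doxycycline-dependent shRNA that targets the transcript of the EWSR1::FLI1 fusion (shEF). In 3 EWSR1::FLI1 high libraries the cells received no doxycycline, and in 3 EWSR1::FLI1 low libraries they received 1 µg/mL doxycycline for 72 h. Both groups carry the same constructs, so the effects of the knockdown and of doxycycline itself cannot be told apart. RNA was sequenced as ribosomal-RNA-depleted total RNA. FLI1, whose reads include the fusion transcript, was 11.3, 12.7 and 14.2 FPKM in the high libraries and 2.91, 4.29 and 3.68 FPKM in the low ones (difference -1.57 on the log2 scale, limma, adjusted p = 0.000676).

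MALAT1 and NEAT1 are abundant nuclear RNAs: MALAT1 collects in nuclear speckles beside splicing factors, and NEAT1 is the scaffold around which paraspeckles assemble. The SNHG genes carry snoRNAs in their introns, and the small RNAs, which guide modification of ribosomal RNA, are released when the host transcript is spliced. miRNA host genes likewise carry miRNA hairpins, which are cut out of the host by DROSHA. The spliced host RNA is what RNAseq measures, and its level is not that of the small RNA.

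Mature miRNAs of DLEU2 and of the genes with a MIR...HG symbol that passed a test below are shown first, since these hosts differ in which seeds they encode. Sequences are from RefSeq (GRCh38.p14), written 5′ to 3′ with the seed, bases 2 to 8, in capitals. Positions are exact matches on GRCh37, the build of the deposited files. MIR17HG encodes the miR-17-92 cluster in an intron, and its 6 members shown here fall into 4 seed groups, of which the pairs miR-17-5p with miR-20a-5p and miR-19a-3p with miR-19b-3p each share a whole seed.
hsa-miR-17-5p: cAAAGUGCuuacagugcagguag
hsa-miR-20a-5p: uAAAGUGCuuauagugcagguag
hsa-miR-18a-5p: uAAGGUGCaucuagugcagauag
hsa-miR-19a-3p: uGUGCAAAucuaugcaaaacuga
hsa-miR-19b-3p: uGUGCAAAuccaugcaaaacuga
hsa-miR-92a-3p: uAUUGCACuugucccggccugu
The cluster spans from miR-17-5p at chr13:92002872-92002894 to miR-92a-3p at chr13:92003615-92003636, on the plus strand.

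DLEU2, also on chromosome 13, carries miR-15a at chr13:50623303-50623324 and miR-16 at chr13:50623163-50623184 in an intron on the minus strand, and these share a whole seed. MIR503HG, on the X chromosome, carries miR-503 at chrX:133680401-133680423, whose seed is identical to theirs at 6 of 7 bases. Counted from the 5′ end of the miRNA, the substitution from miR-15a-5p or miR-16-5p to miR-503-5p is A8G. The levels of the hosts of these related miRNAs are given below.
hsa-miR-15a-5p: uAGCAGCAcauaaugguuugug
hsa-miR-16-5p: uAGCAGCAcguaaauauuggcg
hsa-miR-503-5p: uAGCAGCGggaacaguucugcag

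MIR100HG carries miR-100, let-7a and miR-125b in introns on the minus strand, at chr11:122022983-122023004, chr11:122017276-122017297 and chr11:121970517-121970538. MIR22HG and MIR600HG carry their miRNAs in an exon, at chr17:1617208-1617229 and chr9:125873840-125873862, both on the minus strand. Exon and intron refer to the canonical transcript of the GENCODE v44 annotation on GRCh37.
hsa-miR-100-5p: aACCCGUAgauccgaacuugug
hsa-let-7a-5p: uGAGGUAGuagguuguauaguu
hsa-miR-125b-5p: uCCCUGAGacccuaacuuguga
hsa-miR-22-3p: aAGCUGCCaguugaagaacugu
hsa-miR-600: aCUUACAGacaagagccuugcuc

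For snoRNA host genes the start of the transcript is shown, because several of these genes belong to the class whose transcripts begin with a run of pyrimidines (5′ TOP), as ribosomal protein mRNAs do. Each line gives the 5 bases before and 25 bases after the RefSeq start, with the run in capitals where one of at least 5 pyrimidines began within 5 bases of the start, a definition set after the start sites were seen.
SNHG4: ggctgCCCTTTCCCCTCCggcctctgccgg
SNHG12: agcgCCCTTTCTCCCCgccgcattcccggt
SNHG1: tcgttctcaTTTTTCTactgctcgtggtaa
SNHG5: tcggTCTTTTacgtcggccttcgcgagcgt
SNHG7: tcgTCCTCTgcgtgcgccggaggctgccgt
SNHG3: tttctgaTTCTCTaactgcgcatgcttctg
GAS5: aattcagatgtgtttattttggagcctaca
SNHG20: gccggaagttgctgacggagctacttccgc
In GRCh37 these windows lie at chr5:138609785-138609814 (plus strand, SNHG4), chr1:28908361-28908390 (minus, SNHG12), chr11:62623333-62623362 (minus, SNHG1), chr6:86388427-86388456 (minus, SNHG5), chr9:139622612-139622641 (minus, SNHG7), chr1:28832450-28832479 (plus, SNHG3), chr1:173838159-173838188 (minus, GAS5) and chr17:75084720-75084749 (plus, SNHG20). Of the 15 snoRNA hosts with a RefSeq start, 10 (66.7%) had such a run, against 24.3% of all 35116 RefSeq start sites and 26.1% of the 284 start sites of 241 of the long noncoding RNAs. GAS5 and SNHG20 had none at the start RefSeq gives. The windows of GAS5 and SNHG3 lay outside the GENCODE gene. Those of SNHG4 and SNHG20 overlapped the gene and no exon of its canonical transcript, and the GENCODE span of SNHG4 begins inside its window. RefSeq and GENCODE thus differ on where GAS5 and SNHG3 start. A run at the GENCODE start was not looked for.

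EWSR1::FLI1 is known to bind GGAA repeats. GGAAGGAA, searched on both strands of the 250 bases before and 50 bases after each start, was present at 13 of the 284 start sites (4.58%) and at 3.67% of all start sites, and 3 GGAA units in a row were present at none of the 284 and at 0.0854% of all. For the 11 RNAs that passed the test below, GGAAGGAA was present at 2 of 19 start sites (10.5%), 1 start of MIR100HG and the start of LINC00189. Both of these RNAs were higher in the EWSR1::FLI1 low libraries, and binding of the fusion was not tested.

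Most of the set was expressed at a low level. The median over the 331 RNAs of the mean FPKM was 0.782, against 6.62 over all genes tested. There were 195 RNAs under 1 FPKM and 29 at 10 FPKM or more. MALAT1 had the highest mean (286 FPKM), followed by SNHG6 (170), GAS5 (161), LINC00657 (125) and SNHG5 (91.0). LINC00657 is now called NORAD. MALAT1 alone took 9.86 to 13.4% of the summed FPKM of the set in the high libraries and 13.8 to 22.1% in the low ones. At the lower edge of the set stood LINC01237, LINC00615 and LINC01594, with means of 0.5001 to 0.5024 FPKM, and just below it LINC01312, LINC01096 and LINC00239, with means of 0.4992 to 0.4999 FPKM. Of the 609 matching symbols below the level, 8 were at 0 in every library.

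The word intergenic held for many of these genes and not for others. GENCODE contained 310 of the 331 genes, 39 of them under another current symbol, and LINC00673 and LINC00888 were among the 21 that could not be matched. Of the 310, 242 overlapped no protein-coding gene, 22 overlapped one on the same strand and 46 overlapped one on the other strand only. GENCODE gave 290 the type lncRNA and 14 the type protein-coding, among them TUG1 and 4 RNAs now known to encode microproteins, namely LINC00998 (SMIM30), LINC00493 (SMIM26), LINC00116 (MTLN) and LINC01420 (NBDY). Some other LINC symbols were matched by synonym to a whole coding gene, such as LINC00341 to SYNE3 and LINC01279 to CCDC80. A gene matched in this way was not counted as an overlap of its own RNA, so the overlap counts do not include it. Whether the deposited values used strand is not given in the sources used here, so reads of a gene and of a partner it overlaps cannot be told apart.

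The comparison asked which of these RNAs differed between EWSR1::FLI1 low and high cells. It used limma on log2(FPKM + 1) over all 15504 genes, with p-values adjusted over all of them. At an adjusted p under 0.01, 6 of 331 (1.81%) were higher in the low libraries, against a background of 4.51% of all genes tested, and 5 (1.51%) were lower, against 3.37%. In either direction the set had 3.32% and all genes 7.88%. At an adjusted p under 0.05, 20 (6.04%) were higher, against 9.87%, and 21 (6.34%) were lower, against 9.91% (19.8% of all genes in either direction). The 3 low libraries all lay above the 3 high ones for 55 RNAs (16.6%, against 17.5% of all genes) and all below for 43 (13.0%, against 23.6%). The median difference was 0.04 over the set and -0.05 over all genes tested, on the log2(FPKM + 1) scale. With quantile normalization 8 were higher and 12 lower at 0.01, and the median of the set was -0.05.

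These shares moved with level. No RNA of the 195 between 0.5 and 1 FPKM passed 0.01 in limma or in voom on the recovered reads, against 1.09% of all genes at that level in limma, and 25 had an unadjusted p under 0.05. Of the 57 RNAs between 2 and 10 FPKM, 9 (15.8%) passed, against 11.8% of all genes there. Of the 29 at 10 FPKM or more none passed in limma, against 8.37% of all genes there. At 0.05, 8 (27.6%) passed, against 21.9%, and 12 had an unadjusted p under 0.05. In voom 3 of the 29 passed 0.01. Of all 6427 genes at that level, 493 were higher and 652 lower at 0.01 in voom. A group mean of 0.5 FPKM was reached in 1 group only by 76 of the 331 RNAs, by none of the 11 that passed 0.01 and by 7 of the 41 that passed 0.05, and the counts are a description for that reason. Those 7 were LINC01358, LINC00941, MIR503HG, LINC01351, LINC01036, LINC00463 and LINC01031. With 1 library left out at a time, the 11 stayed under an adjusted p of 0.05 in limma, while each of the 30 RNAs between 0.01 and 0.05 exceeded it at least once, with highest adjusted p of 0.057 to 0.189.

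**Figure D1:**
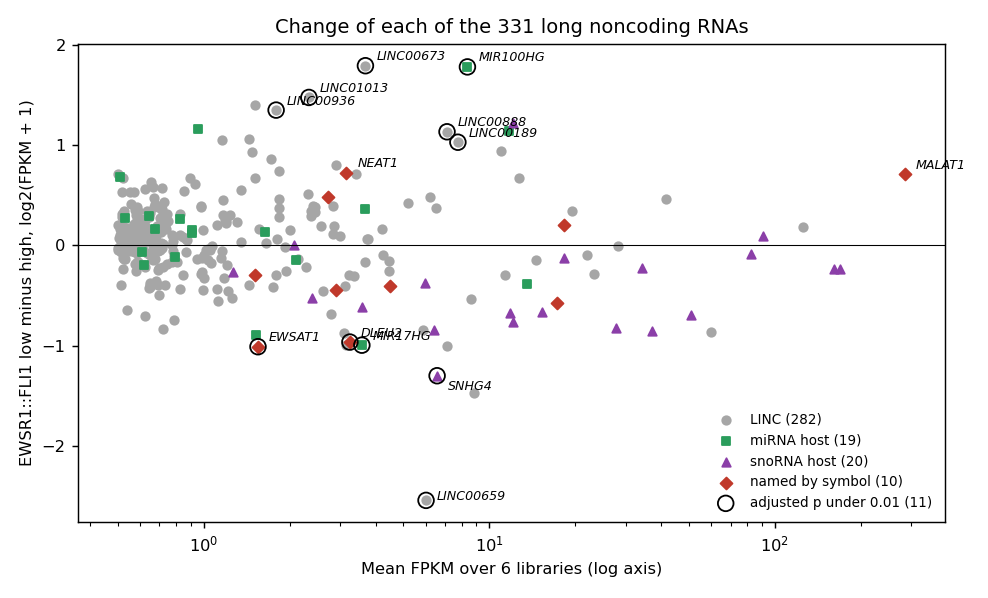
Mean FPKM over the 6 libraries (x, log axis) and difference between EWSR1::FLI1 low and high on the log2(FPKM + 1) scale (y) for each of the 331 RNAs, by kind. Circles mark the 11 with an adjusted p under 0.01, which lie at 1.55 to 8.39 FPKM, while most RNAs lie near 1 FPKM and near no difference.

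LINC00673 and MIR100HG were higher in EWSR1::FLI1 low cells by nearly the same amount, and their order turned with the processing. LINC00673 was 0.887, 1.06 and 1.37 FPKM in the high libraries and 5.58, 6.64 and 6.57 FPKM in the low ones, so the groups were far apart. The log2 difference was 1.79 ± 0.16 (SE, limma, adjusted p = 0.000237).

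MIR100HG, the host of miR-100, let-7a and miR-125b, was 3.49, 3.26 and 2.76 FPKM in the high libraries and 9.71, 17.1 and 13.97 FPKM in the low ones, with every low library above every high one. The log2 difference was 1.78 ± 0.22 (SE, limma, adjusted p = 0.000866). The short coding gene BLID lies on the same strand inside the span of MIR100HG and differed by 0.94 (limma, adjusted p = 0.034).

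LINC00936, now called ATP2B1-AS1, lies at chr12:90102736-90106367 on the plus strand, where it overlaps the start of the calcium pump gene ATP2B1 on the other strand. It was 0.540, 0.502 and 0.689 FPKM in the high libraries and 3.001, 3.010 and 3.018 FPKM in the low ones, from 12 to 17 reads and from 74 to 141 reads. The difference was 1.35 ± 0.15 (SE, limma, adjusted p = 0.000549). ATP2B1 itself was 32.9, 31.2 and 32.1 FPKM in the high libraries and 131, 124 and 109 FPKM in the low ones (difference 1.89, limma, adjusted p = 0.000212).

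LINC01013, at chr6:132222988-132491132 on the plus strand, overlaps the matricellular gene CTGF (now CCN2) on the other strand. It was 0.761, 0.250 and 1.42 FPKM in the high libraries and 3.70, 3.53 and 4.35 FPKM in the low ones, and the high libraries rested on 8, 2 and 11 reads. The difference was 1.47 ± 0.24 (SE, limma, adjusted p = 0.00369). CTGF was 0.976, 1.71 and 3.53 FPKM in the high libraries and 45.2, 106 and 48.2 FPKM in the low ones (difference 4.43, limma, adjusted p = 0.000207). In both genes the third high library was the highest of the 3. With 1 library left out, the adjusted p of LINC01013 rose to at most 0.018.

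LINC00888, now listed as SNHG33, was 5.02, 3.30 and 4.02 FPKM in the high libraries and 9.62, 9.78 and 10.9 FPKM in the low ones (difference 1.13 ± 0.18, SE, limma, adjusted p = 0.00332). LINC00189, which overlaps the transcription factor gene BACH1 on the same strand at chr21:30565801-30660526, was 5.20, 4.44 and 4.57 FPKM and then 8.87, 10.6 and 12.9 FPKM (difference 1.03 ± 0.18, SE, limma, adjusted p = 0.00568). Both were separated between the groups in every library. BACH1 differed by 0.68 (limma, adjusted p = 0.081). With 1 library left out, the adjusted p rose to at most 0.026 for LINC00888 and 0.039 for LINC00189.

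Among the RNAs that were lower, LINC00659 had the largest difference of the whole set. It lies at chr20:61404332-61408348 on the minus strand and overlaps no protein-coding gene. It was 10.7, 13.2 and 8.96 FPKM in the high libraries and 1.75, 0.518 and 1.00 FPKM in the low ones, from 49 to 79 reads down to 3 to 11 reads. The ratio of the group means was 0.0998 and the log2 difference -2.54 ± 0.24 (SE, limma, adjusted p = 0.000284). Its nearest coding gene, the neurotensin receptor gene NTSR1, lies 10209 bp away and differed by 0.07 (limma, adjusted p = 0.82).

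EWSAT1 is known as an RNA induced by the fusion protein in Ewing sarcoma. It lies at chr15:69365266-69388160 on the plus strand and overlaps no coding gene. It was 2.45, 2.33 and 2.40 FPKM in the high libraries and 1.02, 0.627 and 0.457 FPKM in the low ones. The ratio of the means was 0.293 and the difference -1.01 ± 0.17 (SE, limma, adjusted p = 0.00487). The adjusted p rose to at most 0.027 with 1 library left out.

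MIR17HG, the host of the miR-17-92 cluster, was 6.15, 3.80 and 5.40 FPKM in the high libraries and 1.68, 2.28 and 2.16 FPKM in the low ones, with no overlap (difference -0.99 ± 0.19, SE, limma, adjusted p = 0.00873). DLEU2, the host of miR-15a and miR-16, was 4.13, 5.53 and 4.197 FPKM and then 1.503, 1.85 and 2.30 FPKM (difference -0.96 ± 0.18, SE, limma, adjusted p = 0.0072). Both had a low group at near 0.4 of the high group, with ratios of 0.399 and 0.408. The oncogene MYC, a known activator of MIR17HG, was 39.7, 38.6 and 54.1 FPKM in the high libraries and 23.6, 60.6 and 33.5 FPKM in the low ones, and its groups overlapped. Leaving out any 1 library ended the call at 0.01 for both hosts, with adjusted p of at most 0.044 for MIR17HG and 0.043 for DLEU2.

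SNHG4 was 10.7, 9.49 and 8.77 FPKM in the high libraries and 2.55, 2.68 and 5.19 FPKM in the low ones (difference -1.30 ± 0.23, SE, limma, adjusted p = 0.00613). It lies at chr5:138609791-138620588, overlapping MATR3 on the same strand and SIL1 on the other. Neither overlapping gene was lower at 0.05: MATR3 differed by -0.36 (limma, adjusted p = 0.15) and SIL1 was higher in the low libraries, by 0.83 (limma, adjusted p = 0.016). The adjusted p of SNHG4 rose to at most 0.032 with 1 library left out.

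**Figure D2:**
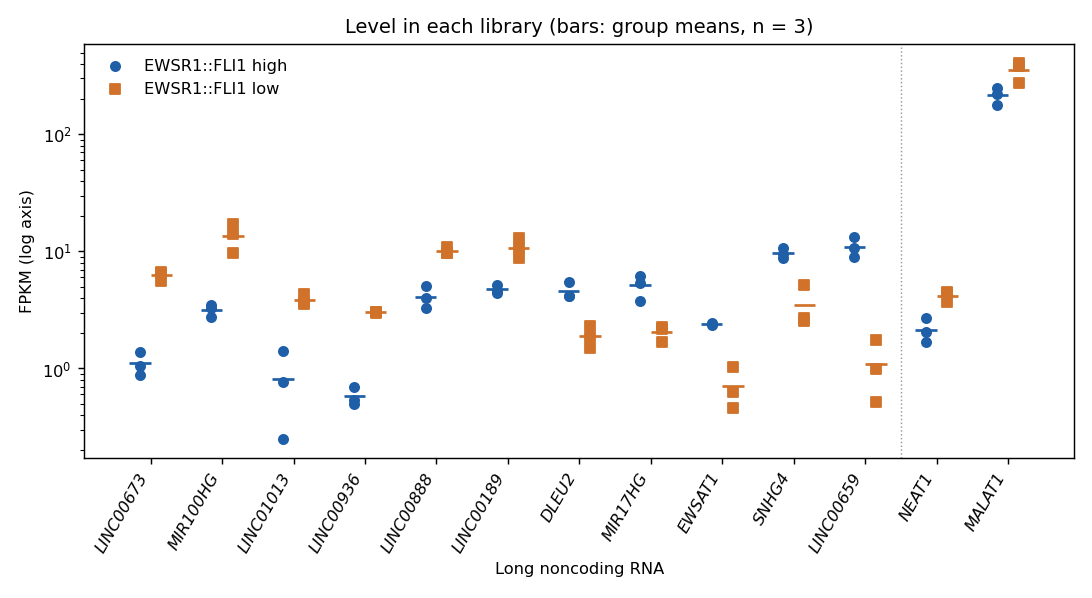
FPKM (log axis) in each of the 3 EWSR1::FLI1 high (circles) and 3 EWSR1::FLI1 low (squares) libraries, with group means as bars, for the 11 RNAs with an adjusted p under 0.01 and, right of the dotted line, NEAT1 and MALAT1. In all 13 RNAs the 2 groups do not overlap; LINC00659 falls from a mean of 10.9 to 1.09 FPKM.

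The nuclear RNAs MALAT1 and NEAT1 had higher levels in the low libraries and did not pass 0.01 in limma. MALAT1 was 248, 223 and 177 FPKM in the high libraries and 386, 409 and 273 FPKM in the low ones, from 12018 to 37271 reads. The groups did not overlap, and the difference was 0.71 ± 0.21 (SE, limma, adjusted p = 0.042), with an adjusted p of 0.053 to 0.173 on leaving out any of 5 of the 6 libraries. NEAT1 was 2.70, 2.07 and 1.68 FPKM and then 4.48, 4.39 and 3.66 FPKM, a difference of 0.72 ± 0.18 (SE, limma, adjusted p = 0.022). NEAT1 passed 0.01 in limma-voom on the recovered reads (1.04, adjusted p = 0.00967), and in limma its adjusted p rose to at most 0.099 with 1 library left out.

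Both stand close together on chromosome 11, NEAT1 at chr11:65190245-65213011 and MALAT1 at chr11:65265111-65275544. The nearest coding gene to NEAT1, FRMD8, was 3.66, 3.48 and 3.99 FPKM in the high libraries and 4.797, 9.39 and 10.3 FPKM in the low ones (difference 0.91, limma, adjusted p = 0.036). Genes for proteins of these nuclear bodies had differences of the opposite sign. All 10 paraspeckle protein genes of the list had negative differences, with a median of -0.52 and 0 past 0.01 in limma (3 in voom). In limma 5 had an unadjusted p under 0.05, and 4 were lower at an adjusted p under 0.05, namely SFPQ (-0.73), RBM14 (-0.90), DAZAP1 (-1.08) and CPSF6 (-0.62). All 8 nuclear speckle and splicing factor genes were negative, with a median of -0.62. None passed 0.01 in limma (3 in voom), 5 had an unadjusted p under 0.05, and SRSF1 (-0.84), SRSF2 (-0.82) and PNN (-0.99) were lower at an adjusted p under 0.05. Of all genes at 10 FPKM or more, 67.2% had negative differences, the median was -0.22 and 14.2% were lower at 0.05. In voom, 652 of these 6427 genes were lower at 0.01 and 493 were higher.

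The other RNAs listed by name differed less. CRNDE, which starts near the homeobox gene IRX5, was 19.8, 23.2 and 19.8 FPKM in the high libraries and 12.8, 13.7 and 14.6 FPKM in the low ones (difference -0.58 ± 0.17, SE, limma, adjusted p = 0.044, and at most 0.189 with 1 library left out). IRX5 lies 1676 bp from CRNDE and differed by -0.67 (limma, adjusted p = 0.056). HOTAIR, from the HOXC cluster, differed by -0.30, and its neighbours HOXC11 and HOXC10 by -0.19 and -0.39, none of them past 0.05. PVT1, beside MYC on chromosome 8, differed by -0.40, and DLEU1, which starts close to DLEU2 on the other strand, by -0.45, with overlapping groups in both. RB1 (-0.33), TRIM13 (-0.17) and KCNRG (-0.17), coding genes near the DLEU locus, did not pass either. TUG1 differed by 0.21 (limma, adjusted p = 0.44), though its 3 low libraries (19.1 to 20.8 FPKM) all lay above the high ones (14.8 to 18.2 FPKM).

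MEG3 and SNHG24, now listed as MEG8, are RNAs of the imprinted DLK1 domain on chromosome 14. MEG3 was 2.28, 1.99 and 2.05 FPKM in the high libraries and 3.94, 2.78 and 3.36 FPKM in the low ones (difference 0.48 ± 0.16, SE, limma, adjusted p = 0.071). SNHG24 was 7.59, 5.75 and 6.56 FPKM and then 10.6, 18.0 and 24.1 FPKM (difference 1.22 ± 0.28, SE, limma, adjusted p = 0.016). The growth regulator DLK1 was near 0 in the high libraries, at most 0.120 FPKM, and 3.04, 3.53 and 2.42 FPKM in the low ones (difference 1.90, limma, adjusted p = 0.000214). All 3 genes were thus higher in every low library than in any high one. The GENCODE span of SNHG24 holds 51 snoRNA genes, and IGF2, the partner of H19, was at or near 0 FPKM in all libraries. Over the list of 13 locus partners, 12 were tested and 2 passed 0.05, DLK1 and FRMD8, both higher. The median of the 12 was -0.18, and PUM2, a protein partner of LINC00657, differed by -0.27. LINC00657 itself was 110, 116 and 124 FPKM in the high libraries and 106, 151 and 145 FPKM in the low ones, with overlap.

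SNHG24 differed in sign from most other snoRNA hosts. Of the 20 hosts, 17 had negative differences, with a median of -0.45 (negative were 16 with quantile normalization and 15 with voom), and the 3 positive ones were SNHG24, SNHG5 (0.10) and SNHG11 (0.01). SNHG4 was lower at 0.01. At 0.05, SNHG3 (-0.82), SNHG7 (-0.67), SNHG17 (-0.61) and SNHG20 (-0.52) were also lower, and SNHG24 was the 1 of the 20 that was higher. The 20 were chosen by the deposited symbol. LINC00888, now listed as SNHG33, is therefore not among them, and it was higher at 0.01, as given above. Of all genes tested 54.8% had negative differences and 9.91% were lower at 0.05, and of those at 10 FPKM or more 67.2% and 14.2%, where the hosts had a median level of 13.7 FPKM. SNHG12 (-0.85, limma, adjusted p = 0.099), SNHG1 (-0.69, 0.087) and SNHG15 (-0.67, 0.082) did not pass, and their groups did not overlap. The low libraries all lay below the high ones for 8 of the 20 hosts (40.0%). The same held for 23.6% of all genes and for 34.7% of those at 10 FPKM or more. The 2 most abundant hosts differed little: SNHG6 by -0.23 and GAS5 by -0.23, with overlapping groups.

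The low libraries spread widely over these hosts. SNHG12 was 40.6, 45.7 and 54.0 FPKM in the high libraries and 14.5, 28.5 and 38.7 FPKM in the low ones, replicate 1 being lowest. SNHG1 was 60.3, 58.8 and 67.0 FPKM and then 26.1, 40.8 and 51.6 FPKM. Replicate 1 of the low group was the lowest library for 15 of the 20 hosts, and also for 4155 of the 6427 genes of any kind at 10 FPKM or more. The summed FPKM of the 20 hosts was 806, 828 and 820 in the high libraries and 555, 665 and 836 in the low ones, so the groups overlapped for the sum. Without that library the median over the hosts was -0.39 with 15 of 20 negative, and 1 host was lower at 0.01 (SNHG4, limma, adjusted p = 0.00999) and 1 higher (SNHG24, limma, adjusted p = 0.00105).

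The proteins that bind snoRNAs were similar in direction. All 13 snoRNP genes measured had negative differences, with a median of -0.68 (12 were negative with quantile normalization). NAF1, an assembly factor, was 6.22, 5.26 and 7.48 FPKM in the high libraries and 2.72, 2.95 and 2.83 FPKM in the low ones, the 1 that passed 0.01 (difference -0.92, limma, adjusted p = 0.00662). FBL, the methyltransferase of box C/D snoRNPs (-0.81), and GAR1 (-0.91) were lower at 0.05. The 13 genes had a median level of 49.2 FPKM. Among all genes at 10 FPKM or more, 67.2% were negative, with a median of -0.22, and 14.2% were lower at 0.05. Several spliced SNHG transcripts are known targets of nonsense-mediated decay. Of 14 decay factor genes none passed 0.05 in limma and 1 did in voom, and 2 had an unadjusted p under 0.05 in limma (UPF3B, -0.78, and SMG8, -0.49). Their median was -0.28.

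Of the 19 miRNA host genes, 12 had positive differences and the median was 0.16 (0.00 with quantile normalization, with 9 of 19 negative). Negative were 36.8% of the hosts, 54.8% of all genes tested and 37.9% of those at 0.5 to 1 FPKM, where the hosts had a median level of 0.909 FPKM. At 0.05, 15.8% of the hosts were higher, against 9.87% of all genes, and 10.5% were lower, against 9.91%. Beside MIR100HG and MIR17HG, 3 passed 0.05. MIR22HG, the host of miR-22, was 6.44, 5.73 and 7.499 FPKM in the high libraries and 8.51, 23.9 and 18.3 FPKM in the low ones (difference 1.14 ± 0.33, SE, limma, adjusted p = 0.039). MIR503HG had 1 read in each high library and 20, 3 and 24 reads in the low ones, which gave 0.465 to 2.86 FPKM (difference 1.16 ± 0.32, SE, limma, adjusted p = 0.035). With so few reads its ratio has little precision, and it met the level of the set only through the low group. MIR600HG, which lies on the same strand inside the gene of the RNA-binding protein STRBP, was 2.69, 1.87 and 2.27 FPKM and then 1.17, 0.489 and 0.676 FPKM (difference -0.89 ± 0.19, SE, limma, adjusted p = 0.014). STRBP was 33.9, 34.0 and 37.4 FPKM and then 11.4, 12.0 and 14.7 FPKM (difference -1.41, limma, adjusted p = 0.00106).

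MIR143HG, now called CARMN, had 0, 4 and 0 reads in the high libraries and 10, 7 and 9 reads in the low ones and did not pass (difference 0.68, limma, adjusted p = 0.058). Of 9 miRNA processing genes measured, all had negative differences with a median of -0.38 (8 were negative with voom). XPO5 (-0.73), which exports the hairpins, and DICER1 (-0.64), which cuts them, were lower at 0.05. The list had a median level of 17.8 FPKM. Of all genes at 10 FPKM or more, 67.2% were negative, with a median of -0.22, and 14.2% were lower at 0.05.

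**Figure D3:**
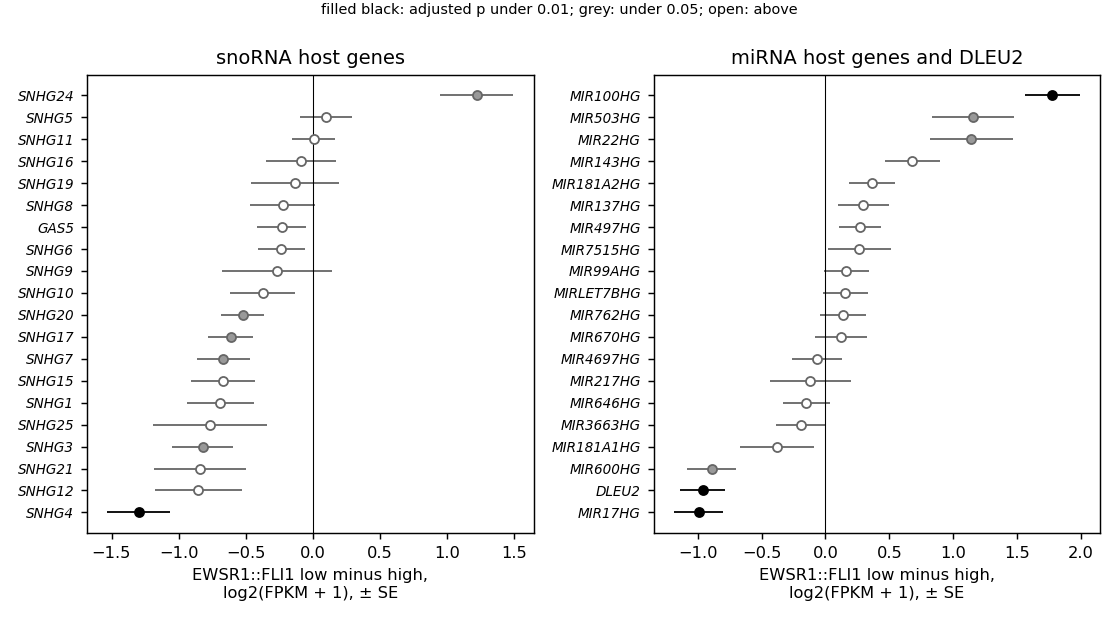
Difference between EWSR1::FLI1 low and high on the log2(FPKM + 1) scale, with its SE, for the 20 snoRNA host genes (left) and for the 19 miRNA host genes and DLEU2 (right). Filled black points passed an adjusted p of 0.01, grey points 0.05 and open points neither; 17 of the 20 snoRNA hosts and 7 of the 19 miRNA hosts lie left of 0.

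Between the 2 thresholds lay 30 RNAs, which are named here after their values were seen. LINC00892 was 14.5, 11.1 and 13.5 FPKM in the high libraries and 3.92, 1.95 and 7.92 FPKM in the low ones (difference -1.47 ± 0.35, SE, limma, adjusted p = 0.021). LINC00998, now known as the microprotein gene SMIM30, was 68.8, 77.9 and 84.7 FPKM and then 35.6, 47.0 and 43.96 FPKM (difference -0.86 ± 0.19, SE, limma, adjusted p = 0.014). LINC01192 (-1.01), LINC01117 (-0.99) and LINC00669 (-0.88) were also lower. LINC00669 is now listed as MIR924HG, and by its deposited symbol it was not counted among the miRNA hosts above.

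On the higher side, LINC01358 was 0.607, 0 and 0.274 FPKM in the high libraries and 0.716, 3.11 and 4.36 FPKM in the low ones (difference 1.40 ± 0.39, SE, limma, adjusted p = 0.035), so its first low library was close to the high group, whose mean was below 0.5 FPKM. LINC00702 (1.06), LINC00941 (1.05), LINC01060 (0.94) and LINC01091 (0.93) were also higher. LINC01091 was 0.392, 0.657 and 1.01 FPKM and then 3.15, 1.41 and 2.23 FPKM, and its nearest coding gene, the receptor signalling inhibitor SPRY1, lies 135266 bp away and differed by 3.91 (limma, adjusted p = 0.000136).

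Many RNAs of low level had their highest value in 1 library. Of the 195 RNAs under 1 FPKM, 109 (55.9%) were highest in replicate 1 of the low group, which also held for 48.2% of all genes at that level. Above 10 FPKM it was so for 3 of 29 RNAs (10.3%) and for 2.58% of all genes. That library had the fewest reads on genes, 6980361, while replicate 3 of the low group had the most, 16658933. Without it the median difference of the 331 RNAs turned from 0.04 to -0.06, 14 RNAs were higher and 6 lower at 0.01, and all genes had a median of -0.03. Calls over all genes rose as well, to 1452 higher and 726 lower, so that 6.04% of the RNAs and 14.0% of all genes passed. MIR17HG and DLEU2 were not among the 6.

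**Figure D4:**
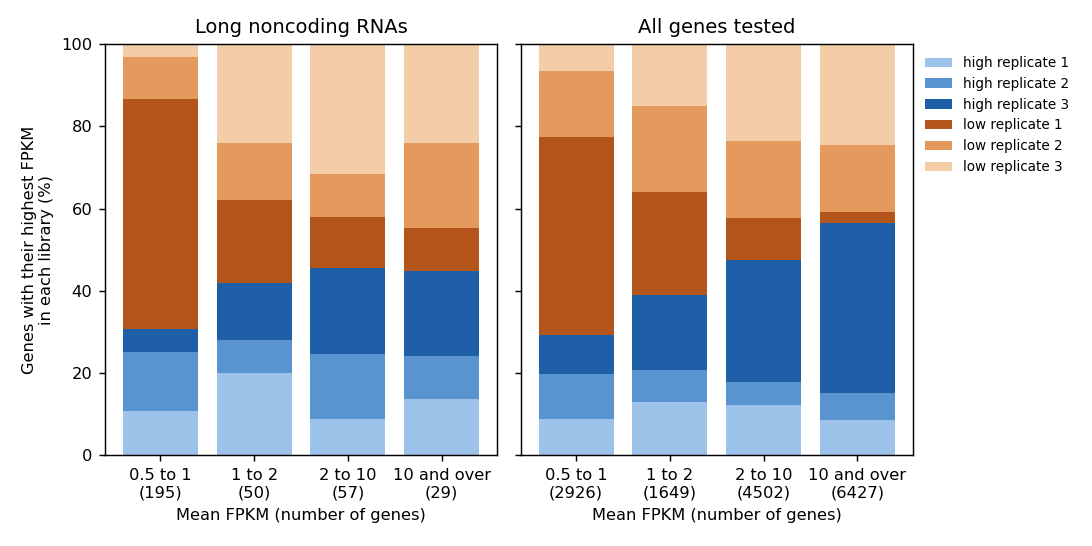
Share of genes (y, %) whose highest FPKM was in each of the 6 libraries, by mean FPKM (x), for the 331 RNAs (left) and all 15504 genes tested (right). In the lowest class, 55.9% of the RNAs and 48.2% of all genes have their highest value in replicate 1 of the EWSR1::FLI1 low group (dark orange).

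For 177 of the RNAs the nearest coding gene lay within 100 kb or overlapped and was itself tested, which gave 174 different coding genes (1 was taken where several overlapped). Where an RNA was matched to a coding gene itself, that gene was passed over, so LINC01279, matched to CCDC80, was paired with SLC35A5. Of these 174, 26 (14.9%) passed 0.01, 16 higher and 10 lower. All genes tested, coding or not, had 7.88%, from 1.09% at 0.5 to 1 FPKM to 11.8% at 2 to 10 FPKM. A share over coding genes alone or at matched level was not taken. The difference of the RNA and of its neighbour had the same sign in 107 of the 177 pairs. Across the pairs Pearson's r was 0.53 for the 47 that overlap and 0.17 for the 130 that do not, and all pairs share the same 6 libraries. Where both overlap, shared reads cannot be told apart from a shared change. Both genes passed 0.01 in 2 pairs, LINC00936 with ATP2B1 and LINC01013 with CTGF. Of the 27 RNAs past 0.05 with such a neighbour, 22 had its sign. LINC00463 lies 531 bp from AMER2, an inhibitor of Wnt signalling. It was 0.977, 0.935 and 0.722 FPKM in the high libraries and 0.210, 0.341 and 0.0598 FPKM in the low ones (difference -0.65), so that it met the level of the set only through the high group, and AMER2 was 6.89, 7.37 and 10.5 FPKM and then 0.933, 0.483 and 0.393 FPKM.

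**Figure D5:**
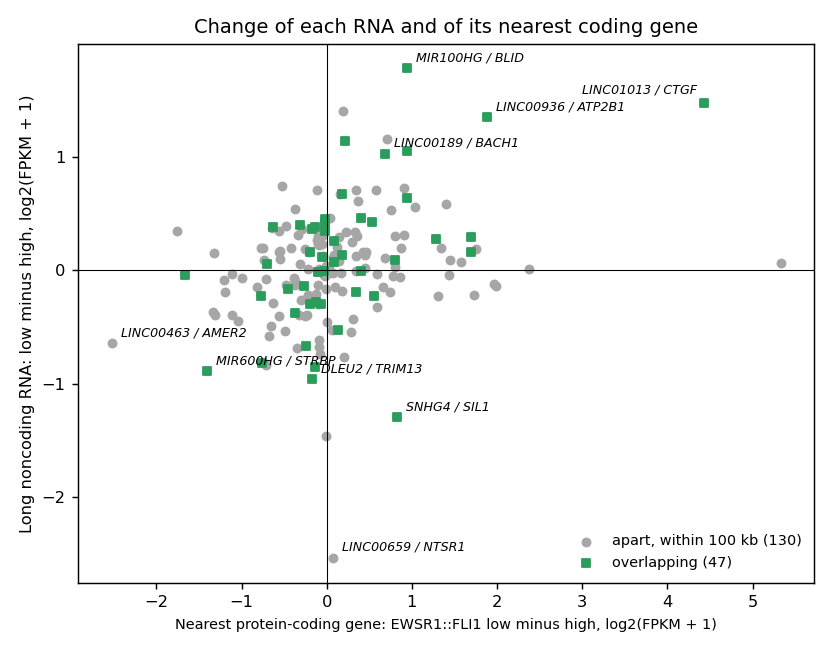
Difference between EWSR1::FLI1 low and high of the nearest protein-coding gene (x) and of the long noncoding RNA (y), both on the log2(FPKM + 1) scale, for 177 pairs. Squares are the 47 pairs that overlap and circles the 130 that do not; LINC01013 with CTGF and LINC00936 with ATP2B1 lie at the upper right, and LINC00659 lies far below its neighbour NTSR1.

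The libraries held 6980361 to 16658933 reads on genes, as recovered from the FPKM steps, and the 331 RNAs took 0.402 to 0.501% of them in the high group and 0.507 to 0.765% in the low group. Without MALAT1 these shares were 0.258 to 0.279% and 0.282 to 0.334%. Of 7 Ewing sarcoma marker genes, 6 were lower at 0.01, with a median difference of -2.15 over the 7. CD99, the surface marker of the tumour, was 144, 118 and 137 FPKM in the high libraries and 105, 84.2 and 86.0 FPKM in the low ones. Of 10 marker genes of blood, epithelial and endothelial cells, 3 reached 0.5 FPKM, CD68, EPCAM and PECAM1, and PECAM1 was higher at 0.05 (0.66). Their summed level was 8.08 to 12.2 FPKM in the high libraries and 9.57 to 23.5 FPKM in the low ones, and CD68 alone was 4.67 to 19.2 FPKM. PTPRC and CD3E were at most 0.669 FPKM in every library.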

How the data were processed

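RNA of 6 A673/TR/shEF libraries, 3 per group by their labels, was analysed. The authors deposited 1 table with an FPKM value per gene and library. The submitters' processing notes name STAR 2.5.0b, Cufflinks 2.2.1, DESeq2 1.6.3, bedtools 2.17.0 and GRCh37, and the library kit was ScriptSeq v2 after Ribo-Zero depletion. A column with the authors' mean normalised signal over all libraries was deposited too and served only to recover reads. Columns with the authors' own comparison (fold change, its error, test statistic and p-values) were not used.

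The FPKM steps gave whole reads for 100% of values (within 0.1 read). Genes with a mean of at least 0.5 FPKM were tested with limma 3.58.1 in R 4.3.3 (lmFit, eBayes with trend) on log2(FPKM + 1), which understates changes of low genes. Benjamini-Hochberg adjustment covered all 15504 genes. The call was an adjusted p under 0.01, with 0.05 also given. On simulated data for this comparison and 15504 genes, 0% of 200 genes changed by 1 on the log2 scale were recovered, 71% of those changed by 2 and 95% of those changed by 3.5. No other genes were changed in each simulation, whereas 1222 passed 0.01 in the data. The adjusted limit was thus stricter in the simulation, and differences near 1 did pass in the data (1.03 for LINC00189). The labels number the libraries Exp1 to Exp3 in each group, which gave the replicate numbers, without saying what a number marks or that replicates were separate cultures, so p-values measure the spread between these samples only. Reads carried no molecular identifiers.

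Symbols were matched to GENCODE v44 on GRCh37, using RefSeq synonyms, and sequences came from RefSeq GRCh38.p14. Python 3.11.15 with pandas 2.3.3 was used for the rest. Named were MALAT1, NEAT1, the RNAs listed by name, the 10 largest changes past 0.01 in each direction (fewer passed), the 5 highest means, hosts past 0.01, nearest coding genes, RNAs at the edge of the level and genes of the lists. Others are marked where they appear. The members and lists were chosen with earlier results of these data known. Lists covered paraspeckle proteins, nuclear speckle factors, snoRNPs, decay factors, miRNA processing, locus partners, Ewing markers and other cell markers. A few genes of the lists are not reported here.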

Additional observations from a re-analysis of the deposited data

How the results depend on the processing

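The counts of RNAs past 0.01 depended on the processing, and the direction of the named ones hardly did. Higher and lower counts were 6 and 5. They were 20 and 21 at an adjusted p under 0.05. The lower count was 1 with no filter on low values, 12 with quantile normalization and 8 with limma-voom on the recovered reads. Leaving out 1 library gave 3 to 14 higher and 1 to 6 lower: without EWSR1::FLI1 high replicate 2, or without low replicate 3, 3 were higher, without low replicate 1, 14 were higher, and the lower count was 1 without any of the high replicates or low replicate 2. MIR100HG, LINC00659, LINC00673 and LINC00936 passed in all 12 alternatives. MIR17HG and DLEU2 lost their call in 7 of 12, each time a library was left out and with no filter. EWSAT1 lost its call in 7, LINC00189 in 6, SNHG4 in 5, LINC01013 in 4 and LINC00888 in 3. Over 23 named RNAs and 276 alternative fits the direction turned in 2, both of RNAs not called: SNHG6 (0.00030 with quantile normalization) and SNHG5, which ranged from -0.039 without low replicate 3 to 0.25 without low replicate 1. NEAT1 was the 1 named RNA that gained a call at 0.01, with limma-voom. FLI1 differed by -1.57 and passed in every fit. In the replicate block fit, which takes the numbers as pairs, 8 were higher and 8 were lower. Over all genes that fit had 916 higher and 786 lower, against 700 and 522 in the main fit. Deviations of same-numbered libraries correlated at 0.27, 0.089 and 0.12. Those of differently numbered libraries correlated at -0.29, -0.052, -0.0078, -0.089, -0.24 and 0.19. The same-numbered values were all positive, so pairing by number remains possible. That the others were mostly negative follows from taking deviations from each group's mean and adds nothing on pairing. The main fit left the numbers out because the labels do not say what a number marks. Many low-level RNAs rested on few reads: 12 to 57 of the 331 had fewer than 3 reads in a library, 12 in the library with the fewest reads on genes (6980361) and 57 in one with 8359615.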
